A study of Mus musculus with 6 samples.

Results

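The delta protocadherins are non-clustered members of the cadherin superfamily, single-pass membrane proteins with an ectodomain of cadherin repeats that bind mostly to their own kind on the facing cell. They fall into a delta-1 and a delta-2 subfamily that differ in the length of the ectodomain and in conserved cytoplasmic motifs. Delta-1 tails carry a site for the phosphatase PP1-alpha, and several delta-2 tails recruit the WAVE complex, which nucleates branched actin. In the developing nervous system their overlapping expression is known from axon growth, sorting of neurons into groups and synapse formation. The members here were 9 genes taken by name from the 56805 genes of the count table. They were Pcdh1, Pcdh7, Pcdh9 and Pcdh11x of the delta-1 group, Pcdh8, Pcdh17, Pcdh18 and Pcdh19 of the delta-2 group, and Pcdh20, which is usually set apart from both.

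Ribosomal RNA-depleted total RNA was sequenced from cervical and thoracic samples of mouse embryos at e12.5 that the labels call motor neurons, with 3 libraries per region. Embryos of both regions had the genotype control and no treatment. The title places the series in work on Hox5 genes and motor neuron diversity. The isolation of the cells, the number of embryos per library, the strain and the sequencer are not stated in the labels. Nothing states whether libraries came from separate litters or pools, so a p-value here reflects only the spread of these 6 samples, which may in part be technical.

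Library totals lay between 32103071 and 33790634 counts, except for thoracic replicate 1 with 53186131. The labelled cell type was checked against its markers. All 8 motor neuron markers were tested, and they summed to 309 to 636 CPM in the cervical libraries, against 373 to 579 CPM in the thoracic ones. CPM is a gene's count divided by the library's total after TMM scaling and multiplied by 1000000. The 9 spinal interneuron markers summed to 1381 to 1523 CPM in the cervical libraries, against 1211 to 1230 CPM in the thoracic ones. In every library this was above the sum of the motor neuron markers. Transcripts of other spinal neurons were thus abundant, and these markers do not show that the samples were mainly motor neurons. The share of cells of either kind was not measured. Xist, the RNA that silences one X chromosome in females, stood at 2166 CPM in cervical replicate 3 and 2010 CPM in thoracic replicate 3, against at most 2.39 CPM in the other 4 libraries. The Y-linked gene Ddx3y was at most 0.156 CPM in both replicates 3 and at least 33.8 CPM in the other 4 libraries. Replicate number and sex markers thus moved together in both regions.

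For a view of the regulatory sequence, the 250 bases upstream of the annotated start were read from RefSeq (GRCm38.p6), where 7 of the 9 members had an entry. Pcdh18 and Pcdh19 are printed because they had the largest fold changes between regions among these 7, in opposite directions. Capitals mark TAAT, the core bound by homeodomain proteins such as Hox factors, and CCAAT, a common promoter box, each searched on both strands (ATTGG is CCAAT on the other strand; no match of the first overlaps one of the second). The Pcdh18 stretch is chr3:49757317-49757566 and the Pcdh19 stretch chrX:133688994-133689243, both on the minus strand and written 5′ to 3′.
Pcdh18: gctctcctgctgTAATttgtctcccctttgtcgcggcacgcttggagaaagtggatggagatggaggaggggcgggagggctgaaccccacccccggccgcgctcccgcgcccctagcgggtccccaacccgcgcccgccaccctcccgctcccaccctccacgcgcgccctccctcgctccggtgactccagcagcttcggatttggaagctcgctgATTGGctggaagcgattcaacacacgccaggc
Pcdh19: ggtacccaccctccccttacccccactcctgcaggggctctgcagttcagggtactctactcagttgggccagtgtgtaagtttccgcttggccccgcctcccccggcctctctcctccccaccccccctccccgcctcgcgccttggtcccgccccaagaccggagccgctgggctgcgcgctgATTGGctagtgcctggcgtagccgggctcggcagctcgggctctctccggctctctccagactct

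TAAT was found in 3 of the 7 members (Pcdh8, Pcdh18 and Pcdh20), and 55.3% of 27025 mouse promoter windows of the same length held it. In Pcdh18 it began 238 bases before the start, and the Pcdh19 window had none. CCAAT was found in 6 of the 7, all but Pcdh7, against 34.5% of all windows; this motif was chosen after the sequences were seen. It began 32 bases before the start in Pcdh18 and 65 bases before it in Pcdh19, within the longest run that the pair shared, of 12 bases. Both windows were rich in G and C, at 68.0% for Pcdh18 and 69.2% for Pcdh19, against a median of 52.0% over all windows. Pcdh8 was the member with a TATAAA box, 30 bases before its start, a motif held by 12.97% of all windows. A match is a run of letters and does not show that a factor binds there.

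By the coordinates of the count table (mm39), 4 members lay within 14.1 Mb of chromosome 14, in the order Pcdh8, Pcdh17, Pcdh20 and Pcdh9, from 80004215 to 94128115. Pcdh11x (chromosome X, 119199956 to 119820316) and Pcdh19 (chromosome X, 132483609 to 132589736) were both X-linked. Pcdh18 lay on chromosome 3 from 49697745 to 49711774, Pcdh7 on chromosome 5 from 57875309 to 58290572, and Pcdh1 on chromosome 18 from 38318967 to 38345106. The genes spanned from 4.54 kb (Pcdh8) to 877 kb (Pcdh9), and merged exonic length ran from 4538 bases in Pcdh8 to 13946 bases in Pcdh11x. A single merged exon block held 35.4% (Pcdh11x) to 100% (Pcdh8) of a member's exonic bases. Of the 9 genes, 2 shared exonic bases with a gene on the opposite strand, Pcdh7 with 4932441J04Rik (2235 bases, mean 369 counts) and Pcdh8 with Gm9748 (436 bases, mean 16.2 counts). The strand setting used in counting is not stated in the sources at hand, so the values of Pcdh7 and Pcdh8 are uncertain to that extent.

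All 9 members were detected in all 6 libraries and passed the low-count filter. Levels were compared between genes as CPM per kb of exonic length. Pcdh8, an activity-induced member that draws N-cadherin off the surface, averaged 33.2 ± 4.18 CPM per kb (SD over 6 libraries), and Pcdh9 averaged 32.3 ± 2.43 CPM per kb. Their ranges overlapped, and Pcdh8 was the higher in 4 of 6 libraries. Pcdh7 followed at 17.9 ± 2.64 CPM per kb, below the whole range of Pcdh9.

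Pcdh17 (14.3 ± 2.02 CPM per kb) and Pcdh19 (12.7 ± 2.41 CPM per kb) overlapped each other, Pcdh17 also overlapped Pcdh7, and Pcdh19 overlapped Pcdh1, the next in order. Pcdh1 averaged 8.83 ± 0.963 CPM per kb and Pcdh18 7.28 ± 1.36 CPM per kb, with overlapping ranges but the same order in all 6 libraries. Pcdh18 in turn lay above Pcdh11x in all 6 libraries, with ranges that just met. At the low end, Pcdh11x averaged 3.43 ± 1.32 CPM per kb and Pcdh20 1.80 ± 0.121 CPM per kb, without overlap. Exonic length merges all annotated transcripts, so the level per kb of a gene with many exon blocks, such as the 16 of Pcdh11x, depends on which of them are used, which was not measured here. Pcdh10, a delta-2 gene that the choice of members left out, lay between Pcdh7 and Pcdh17 at 15.8 ± 0.922 CPM per kb.

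**Figure D1:**
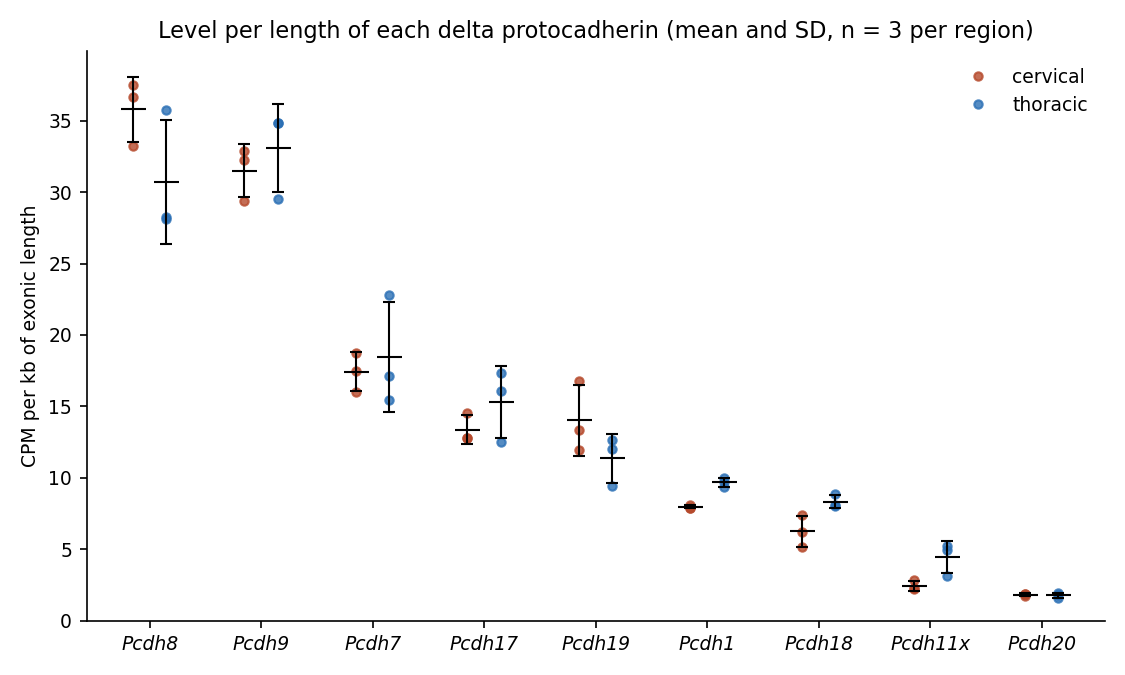
Level of each member as CPM per kb of exonic length (vertical axis, from 0), ordered by the mean over 6 libraries; points are libraries, bars the mean ± SD of 3 cervical (left) and 3 thoracic (right) libraries. Pcdh8 and Pcdh9 stood above 28 CPM per kb in every library and Pcdh20 below 2 CPM per kb.

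The summed level of the family did not separate the regions. The 9 genes summed to 980, 1076 and 1030 CPM in cervical replicates 1, 2 and 3, and to 936, 1146 and 1153 CPM in the thoracic ones, with overlap. The delta-1 genes summed to 501, 502 and 504 CPM in the cervical libraries, against 496, 569 and 636 CPM in the thoracic ones, and the delta-2 genes to 470, 564 and 516 CPM in the cervical libraries, against 432, 567 and 506 CPM in the thoracic ones. In both subfamilies the regions overlapped, and the thoracic libraries were the more spread out.

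The question put to each member was whether its level differed between the regions. With region as the only term, none of the 9 was called by the quasi-likelihood test of edgeR after Benjamini-Hochberg adjustment over all 21972 tested genes, of which 119 (0.542%) were called. At an unadjusted p below 0.05 there were 5 of 9 members, namely Pcdh8 and Pcdh19 with higher cervical levels and Pcdh11x, Pcdh1 and Pcdh18 with higher thoracic ones, against 8.47% of all tested genes (3.27% higher in cervical, 5.19% higher in thoracic). DESeq2 called 2 members, Pcdh11x and Pcdh1 (0.804% of all genes it tested), and limma-voom none (0.487%). The labels do not state that same-numbered libraries are pairs. Pairing was inferred from these same counts, in which same-numbered libraries deviated together. With the replicate number as a block, an alternative to the main model, edgeR called 4 members. Pcdh19 was higher in cervical libraries, and Pcdh11x, Pcdh1 and Pcdh18 were higher in thoracic ones. The blocked fit called 1.97% of all tested genes (0.573% toward cervical, 1.39% toward thoracic). The median log2 fold change, cervical over thoracic, was -0.08 over the 9 members and 0.01 over all tested genes, and the median size of the fold change was 0.22 on the log2 scale for the members, against 0.13 for all tested genes and 0.07 for the 10026 with a mean of at least 10 CPM. In bulk samples, fewer cells of a type and less RNA per cell cannot be told apart.

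**Figure D2:**
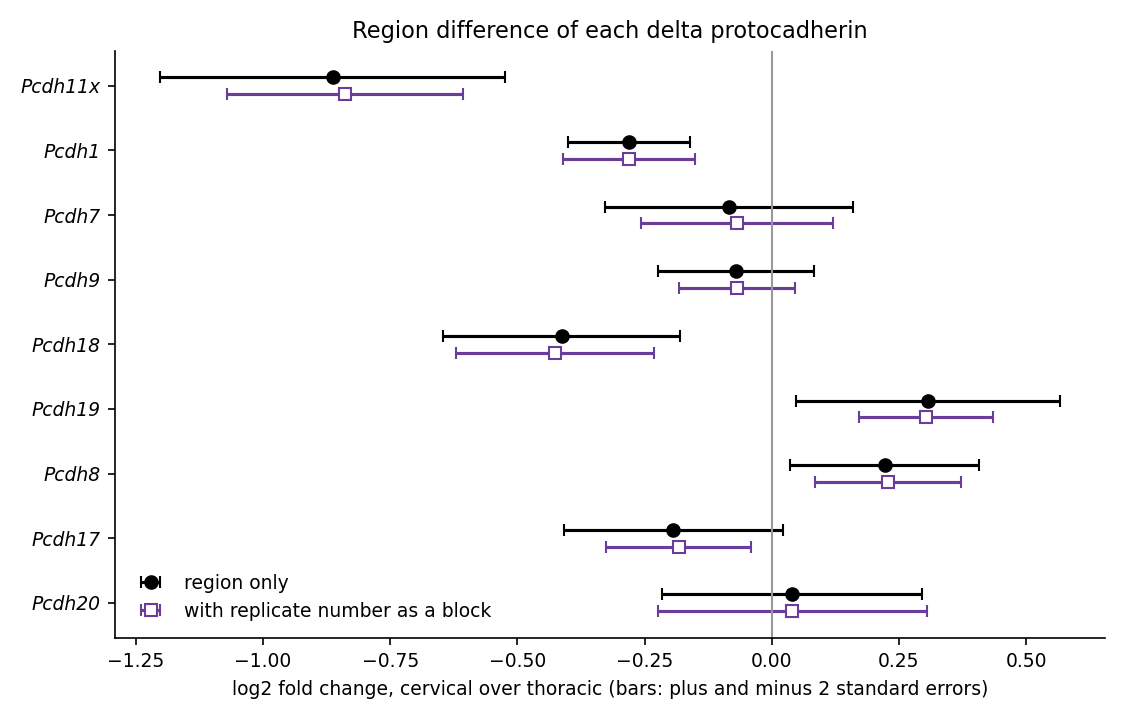
Log2 fold change of each member, cervical over thoracic (horizontal axis; negative values are higher in thoracic), with region alone (filled circles) and with the replicate number as a block (open squares); bars are ± 2 standard errors. Pcdh11x lies farthest from 0 at -0.86, and the blocked intervals of Pcdh11x, Pcdh1, Pcdh18 and Pcdh19 are those whose tests were called.

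Among delta-1 genes, Pcdh11x, an X-linked member expressed in brain that has a Y-linked copy in humans, had the largest fold change of the family. It stood at 31.9, 39.3 and 30.5 CPM in cervical replicates 1, 2 and 3, and at 43.8, 69.2 and 72.5 CPM in the thoracic ones. All thoracic libraries lay above all cervical ones, and thoracic replicate 1 lay nearest to the cervical range. The level was 1.82-fold higher in thoracic samples, at a log2 fold change of -0.86 (SE 0.17, edgeR adjusted p = 0.0599; with the block -0.84, SE 0.12, edgeR adjusted p = 0.00173). Without thoracic replicate 1 the gene was also called with region alone (log2 fold change -1.06, edgeR adjusted p = 0.00334), and over the alternatives run the adjusted p ranged from 3.2e-18, in edgeR without a low-count filter, to 0.242. Within replicate numbers 1, 2 and 3 the thoracic level was 1.37, 1.76 and 2.37 times the cervical one.

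Pcdh1, known from epithelia and, in humans, as an entry receptor of New World hantaviruses, varied little within a region. It stood at 71.3, 69.7 and 69.5 CPM in the cervical libraries, against 87.9, 82.0 and 85.6 CPM in the thoracic ones. Every thoracic library stood above every cervical one, by a small step that was nearly the same within each replicate number (1.23, 1.18 and 1.23 times). The log2 fold change was -0.28 (SE 0.06, edgeR adjusted p = 0.0894; with the block -0.28, SE 0.06, edgeR adjusted p = 0.0454), and over the alternatives the adjusted p ranged from 0.0225 to 0.335.

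The other delta-1 genes, both of higher level per length, gave no call in any alternative. Pcdh7, whose frog counterpart NF-protocadherin guides retinal axons, stood at 199, 170 and 185 CPM in the cervical libraries, against 164, 182 and 242 CPM in the thoracic ones. The regions overlapped, and the direction differed between replicate numbers: cervical was higher in number 1 and thoracic in numbers 2 and 3. Its log2 fold change was -0.08, with ± 2 SE from -0.33 to 0.16 (edgeR adjusted p = 0.934), and it was 0.095 without thoracic replicate 3. Within the span of Pcdh7, 14 short loci on its strand that share none of its exonic bases summed to 79.0, 77.1 and 71.3 CPM in the cervical libraries, against 57.7, 55.0 and 93.4 CPM in the thoracic ones. Like Pcdh7 itself they were highest in thoracic replicate 3, and the regions overlapped.

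Pcdh9, whose loss in mice alters the sensory cortex, stood at 199, 223 and 219 CPM in the cervical libraries, against 200.2, 236 and 236 CPM in the thoracic ones. The regions overlapped, although thoracic was the higher within each number, by 1.08 times at most. The log2 fold change was -0.07, and ± 2 SE covered -0.22 to 0.08 (edgeR adjusted p = 0.902). It was -0.022 without cervical replicate 1, -0.030 without either thoracic replicate 2 or 3, and -0.149 without thoracic replicate 1.

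**Figure D3:**
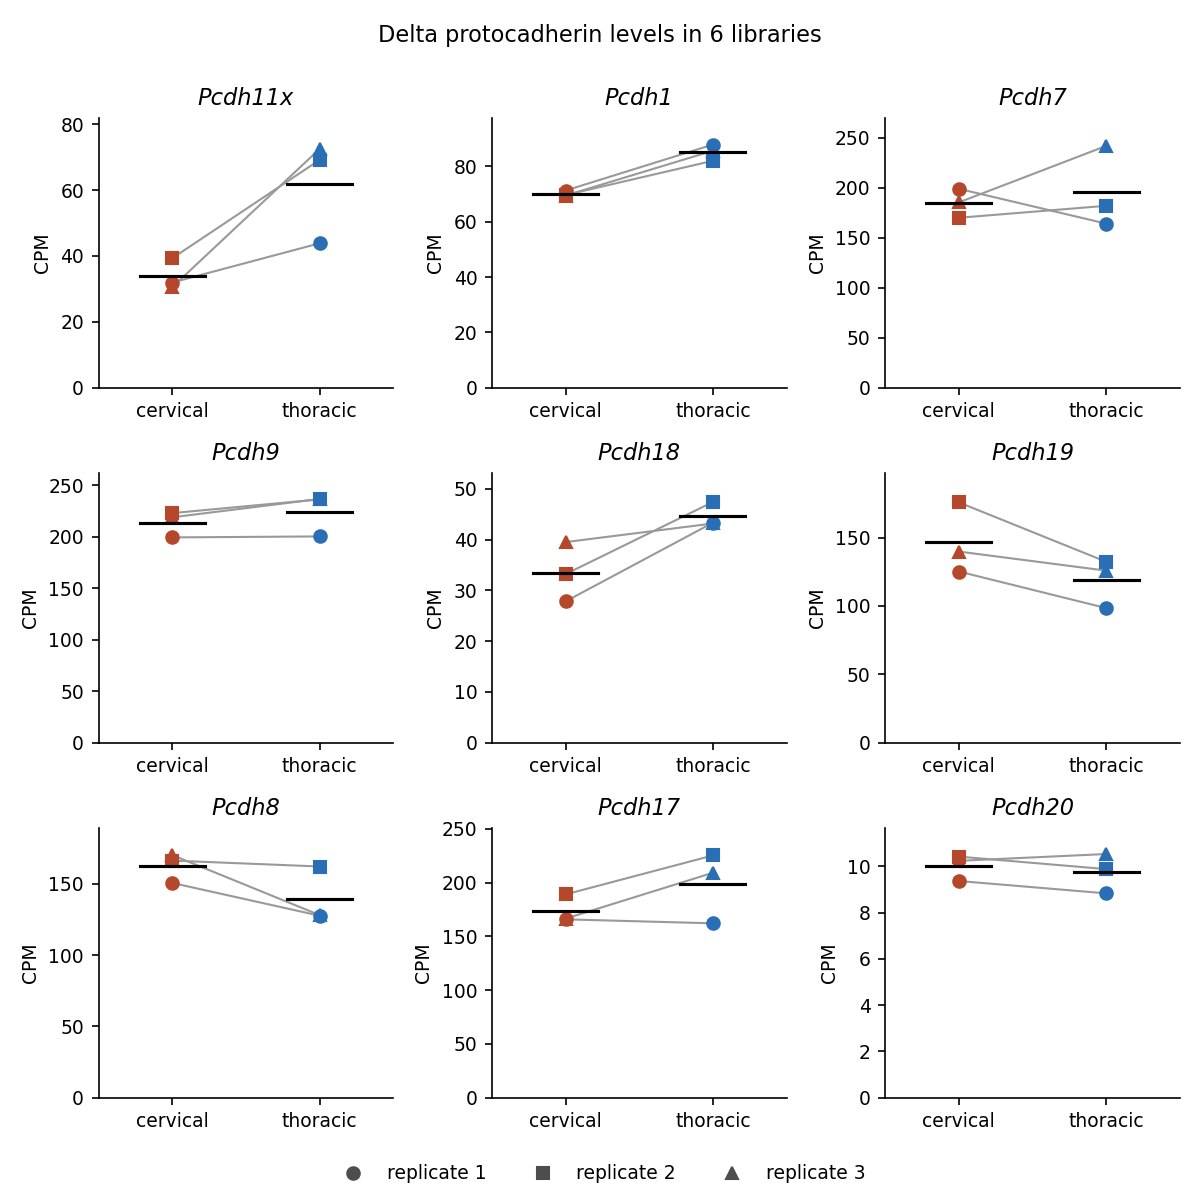
CPM of each member (vertical axes, each from 0) in 3 cervical (left) and 3 thoracic (right) libraries; symbols give the replicate number, grey lines join libraries of the same number, and black bars are means. Pcdh11x, Pcdh1 and Pcdh18 show all thoracic points above all cervical ones, and in Pcdh19 all 3 lines fall toward thoracic although the regions overlap.

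Among delta-2 genes, Pcdh18 and Pcdh19, whose upstream sequences are given above, differed in opposite directions. Pcdh18, which binds the reelin adaptor Dab1 in mice and whose zebrafish counterpart acts in motor axon arborization through Nap1, stood at 27.8, 33.2 and 39.5 CPM in the cervical libraries, against 43.3, 47.4 and 43.2 CPM in the thoracic ones. The thoracic libraries were all above the cervical ones, with the smallest gap in replicate number 3. The log2 fold change was -0.41 (SE 0.12, edgeR adjusted p = 0.232; with the block -0.43, SE 0.10, edgeR adjusted p = 0.042). Over the alternatives its adjusted p ranged from 0.00176 to 0.489. Within numbers 1, 2 and 3 the thoracic level was 1.56, 1.43 and 1.09 times the cervical one.

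Pcdh19, an X-linked gene whose mutation causes epilepsy in heterozygous women and which acts with N-cadherin in zebrafish, stood at 125, 176 and 139.8 CPM in the cervical libraries, against 98.4, 132 and 126 CPM in the thoracic ones. The regions overlapped, since cervical replicate 1 lay below thoracic replicates 2 and 3, while within each number cervical was higher, by 1.27, 1.33 and 1.11 times. The log2 fold change was 0.31 (SE 0.13, edgeR adjusted p = 0.533; with the block 0.30, SE 0.07, edgeR adjusted p = 0.0325), and over the alternatives the adjusted p ranged from 0.00249 to 0.908. With region alone, leaving out cervical replicate 2 gave 0.16 and leaving out thoracic replicate 1 gave 0.18. The part of sex, whose markers moved with replicate number 3, in the values of the X-linked Pcdh11x and Pcdh19 was not tested.

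Pcdh8 stood at 151, 166 and 170.2 CPM in the cervical libraries, against 128, 162 and 128 CPM in the thoracic ones. Cervical was the higher within each number, by 1.18, 1.03 and 1.33 times, but cervical replicate 1 lay below thoracic replicate 2. The gene was not called (log2 fold change 0.22, ± 2 SE from 0.04 to 0.41, edgeR adjusted p = 0.530), and without thoracic replicate 2 that value was 0.346. Pcdh17, which acts in the joint extension of axons through the WAVE complex in mice, stood at 166, 189 and 166 CPM in the cervical libraries, against 162, 225 and 209 CPM in the thoracic ones. Its thoracic replicate 1 was the lowest of all 6 libraries and the other thoracic ones the highest, and it was not called (log2 fold change -0.19, ± 2 SE from -0.41 to 0.02, edgeR adjusted p = 0.719). That fold change was -0.325 without thoracic replicate 1 and -0.093 without thoracic replicate 2. Pcdh20, described in young olfactory sensory neurons of mice, was low throughout, at 9.36, 10.4 and 10.2 CPM in the cervical libraries, against 8.83, 9.88 and 10.5 CPM in the thoracic ones. The groups overlapped, with a log2 fold change of 0.04 and ± 2 SE from -0.22 to 0.30 (edgeR adjusted p = 0.977), and without thoracic replicate 1 it was -0.032.

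Over the family, 3 of 9 members had no overlap between the regions, all with higher thoracic levels, against 13.7% of all tested genes (6.25% higher in cervical, 7.5% higher in thoracic). The direction was the same within all 3 replicate numbers for 6 of 9 members, 2 toward cervical and 4 toward thoracic, against 31.4% of all tested genes (15% toward cervical, 16.4% toward thoracic). As shares of the family's summed CPM per kb, Pcdh8 took 27.4 ± 0.749% in cervical and 23.1 ± 2.47% in thoracic libraries, Pcdh19 took 10.7 ± 1.45% in cervical and 8.50 ± 0.462% in thoracic ones, and Pcdh11x took 1.86 ± 0.214% in cervical and 3.30 ± 0.559% in thoracic ones (SD, n = 3). The share of Pcdh9 was 24.1 ± 0.258% in cervical and 24.9 ± 0.383% in thoracic libraries. These shares are a description, and no test was made of them.

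Pcdh11x had both the largest spread over the 6 libraries (SD 0.54 of log2 CPM) and the smallest p of the members, so genes with the most similar profile were sought for it. Likeness was the mean absolute difference of log2(CPM + 1) over the 6 libraries after centring each gene on its mean, among 10026 genes with a mean of at least 10 CPM. The nearest were Prkg1, a cGMP-dependent protein kinase (0.11), Atp1b2, a beta subunit of the sodium pump (0.13), and Fgf12, an intracellular modulator of sodium channels (0.13). Prkg1 was itself called higher in the thoracic region (log2 fold change -0.998, edgeR adjusted p = 0.0249). It stood at 12.1, 14.7 and 10.6 CPM in the cervical libraries, against 20.5, 24.6 and 29.8 CPM in the thoracic ones. With region alone, Atp1b2 (log2 fold change -0.62, edgeR adjusted p = 0.203) and Fgf12 (-0.66, edgeR adjusted p = 0.122) were not called. Fgf12 was called with the block (edgeR adjusted p = 0.00352). The likeness takes in the region difference, so these fold changes follow from the choice of genes and are not separate evidence. The nearest other member was Pcdh18, at place 166 (0.28), and Pcdh8 and Pcdh19 were at places 9459 and 9692.

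**Figure D4:**
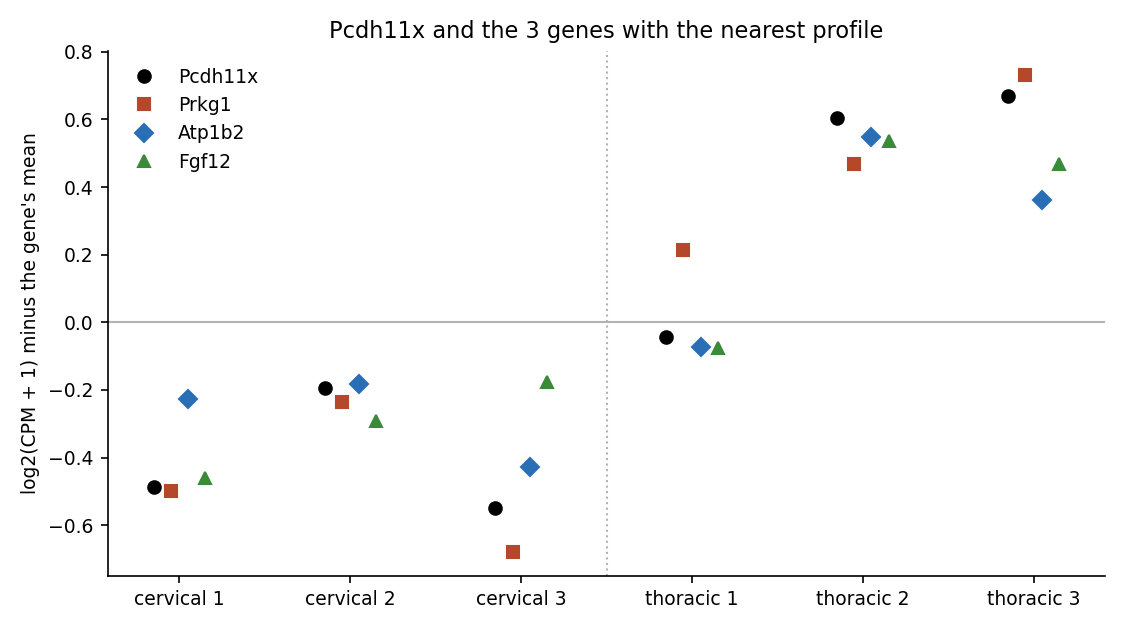
Log2(CPM + 1) minus the gene's mean over 6 libraries (vertical axis) for Pcdh11x and the 3 genes with the most similar profile, by library (horizontal axis, cervical left of the dotted line). The cervical values of all 4 genes lie below 0, and thoracic replicates 2 and 3 lie above it.

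Known partners of delta protocadherins showed no called difference. Of 19 partner genes, all tested, 0 were called by edgeR with or without the block, 0 by DESeq2 and 0 by limma-voom, and 1 had an unadjusted p below 0.05. That gene was Smad3, the TGF-beta effector bound by human PCDH1, at 37.0 ± 3.84 CPM in the cervical libraries, against 42.8 ± 0.731 CPM in the thoracic ones (SD, n = 3, log2 fold change -0.21, edgeR adjusted p = 0.527). Next were the WAVE subunits Wasf2 (log2 fold change -0.18, edgeR adjusted p = 0.6003) and Wasf1 (-0.10, edgeR adjusted p = 0.695). The list's log2 fold changes ran from -0.21 to 0.15 with a median of -0.02. Its genes with the highest CPM were Cyfip2, a WAVE subunit (415 ± 12.55 CPM in the cervical libraries, against 429 ± 5.77 CPM in the thoracic ones), Ctnnb1, beta-catenin (411 ± 6.42 CPM in cervical, 411 ± 26.5 CPM in thoracic), and Cdh2, N-cadherin (382 ± 11.2 CPM in cervical, 392 ± 32.6 CPM in thoracic). Of the other non-clustered protocadherins Pcdh10, Pcdh12 and Pcdh15 none was called, and Pcdh10 stood at 247 ± 17.1 CPM in the cervical libraries, against 255 ± 14.2 CPM in the thoracic ones. On the log2 scale that difference was -0.04 (edgeR adjusted p = 0.940).

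Some of the marker lists held genes called between the regions, with or without the block, and others held none. The sum of interneuron markers was higher in cervical libraries without overlap (sums above), with 2 of 9 called there, Pax2 and Slc6a5. Of the 9 log2 fold changes with region alone, 6 lay above 0 and 3 below. Neural progenitor markers summed to 766 to 1019 CPM in the cervical libraries, against 932 to 1242 CPM in the thoracic ones, with overlap. Of these, 2 of 7, Nes and Vim, were called higher in thoracic with the block. None was called with region alone, where 6 of the 7 log2 fold changes lay below 0 and 1 above, from -0.48 to 0.28. Mesenchyme markers summed to 13.6, 25.1 and 148 CPM in cervical replicates 1, 2 and 3, against 84.0, 105 and 157 CPM in the thoracic ones. In this sum cervical replicate 3 stood apart from the other cervical libraries, and the gap between regions was smallest in number 3. Of these markers, 2 of 5, Col1a1 and Col3a1, were called higher in thoracic with the block. Of the motor neuron markers, 2 of 8, Isl1 and Slc18a3, were called higher in thoracic with the block. Region alone gave no call among them, and 5 of the 8 log2 fold changes lay below 0 and 3 above, from -0.62 to 0.32.

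Schwann cell lineage markers summed to 237 to 253 CPM in the cervical libraries, against 182 to 193 CPM in the thoracic ones, with 1 of 4 called, Foxd3. Dorsal root ganglion markers summed to 70.8 to 91.2 CPM in cervical and 54.9 to 72.2 CPM in thoracic libraries. Endothelial markers summed to 4.84 to 11.2 CPM in the cervical libraries, against 7.55 to 12.02 CPM in the thoracic ones, with none called. Erythroid markers summed to 7.07 to 7.53 CPM in cervical and 4.82 to 8.17 CPM in thoracic libraries, and macrophage markers to 3.87 to 12.6 CPM in cervical and 3.52 to 7.64 CPM in thoracic ones. Of these, 1 of 5 erythroid and 3 of 5 macrophage markers passed the low-count filter and were tested, with none called. No marker of these lists was at 0 in all 6 libraries. The part of these cells in the differences of Pcdh11x, Pcdh1, Pcdh18 and Pcdh19 was not tested.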

How the data were processed

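The deposited file holds raw counts of reads per gene, per the file headers, with mm39 coordinates and the exonic length of each gene. The submitters' processing notes name FastQC 0.11.9, STAR 2.7.5b as the aligner and featureCounts 2.0.1 as the counter. Libraries were stranded and amplified by 15 cycles of PCR from an input of 10 to 20 ng, per the labels' protocols. Neither the annotation release nor the strand setting is given in the sources used here.

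Genes were filtered with edgeR 4.0.16 in R 4.3.3 (filterByExpr, minimum count 10), which left 21972 of 56805, scaled by TMM (factors 0.989 to 1.01) and tested by quasi-likelihood in a model of region alone. Calls were made at an adjusted p (Benjamini-Hochberg, over all tested genes) below 0.05. Fold changes are cervical over thoracic with a prior count of 0.125. Biological variation (common coefficient) came to 15.4%. The SE was taken as the absolute log2 fold change over the root of F. CPM values are TMM-scaled. The test was tried on simulated counts.

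Replicate numbers come from the titles. Deviations from region means correlated at 0.402, 0.392 and 0.605 between same-numbered libraries over 10026 genes, above the 0.1 that was set as the mark of pairing, so blocked values are given where they change a call. Alternatives were DESeq2 1.42.0, limma-voom (limma 3.58.1), other scalings and filters, the block, and leaving out each library. Named genes were all members, called partners, the 3 partners with the smallest adjusted p and the 3 with the highest CPM, the 3 genes most like a member, and genes sharing exonic bases; other markers named were those called. The members and lists were chosen with earlier results of these data known. The supplied genome annotation is of another build and was used for upstream sequences alone, with their own coordinates. Values of some single marker genes are not reported here.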

Additional observations from a re-analysis of the deposited data

How the results depend on the processing

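The count of called members was 0 with region alone, 2 with DESeq2, 4 without a low-count filter and 4 with the replicate block, and it ranged from 0 to 1 when single libraries were left out (1 without thoracic replicate 1); limma-voom, both other scalings and a mean CPM of at least 1 gave 0. Over all genes the count was 119 with region alone, 315 with DESeq2, 747 without a filter, 432 with the replicate block and 9 to 159 when single libraries were left out (41 and 9 without cervical replicates 2 and 3, 37 and 45 without thoracic replicates 2 and 3). Log2 fold changes of the newly called members were, with DESeq2, -0.28 for Pcdh1 and -0.87 for Pcdh11x; without a filter, -0.28 for Pcdh1, -0.87 for Pcdh11x, -0.42 for Pcdh18 and 0.30 for Pcdh19; and with the replicate block, -0.28 for Pcdh1, -0.84 for Pcdh11x, -0.43 for Pcdh18 and 0.30 for Pcdh19. Leaving out single libraries gave -1.06 to -0.73 for Pcdh11x, -0.31 to -0.26 for Pcdh1, -0.55 to -0.30 for Pcdh18 and 0.16 to 0.41 for Pcdh19, and the direction of Pcdh20 (-0.032 to 0.099) and Pcdh7 (-0.20 to 0.095) turned, to -0.032 for Pcdh20 without thoracic replicate 1 and to 0.095 for Pcdh7 without thoracic replicate 3. The cause of these changes was not tested. The block changed no other member's call. Of 117 values of single members under the alternatives, 104 kept their direction and side of the threshold. The partner list had no call in any of them. Leaving out single libraries gave 0.158 to 0.346 for Pcdh8, -0.325 to -0.093 for Pcdh17 and -0.149 to -0.022 for Pcdh9, none of them called.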
